A study of Caenorhabditis elegans with 2 samples.

Results

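Homeobox genes encode transcription factors that bind DNA through a homeodomain. In Caenorhabditis elegans the Hox genes among them set cell fates along the body axis, and many of the others fix the identity of single neuron or muscle types. DAF-12 is a nuclear hormone receptor that binds DNA and, with its steroid ligand, directs larvae through reproductive development rather than dauer arrest. Binding sites of DAF-12 are built from hexamer half-sites such as AGTGCA and AGGACA.

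The homeobox genes described here were chosen by name: every protein-coding gene named ceh- with a number, and the Hox genes lin-39, mab-5, egl-5, php-3 and nob-1. The rule gave 68 of the 19985 protein-coding genes in the Ensembl annotation of WBcel235, 63 of them ceh- genes, and left 19917 other protein-coding genes for comparison. The choice used names only and no measured value, although earlier results of these data were known when it was made. Chromatin immunoprecipitation with sequencing (ChIP-seq) against eGFP-tagged DAF-12 was done on whole L4 larvae, the last larval stage, with both sexes pooled. Both samples are biological replicates of 1 group, strain OP222, with genotype unc-119(ed3) III; wgIs222. Every worm assayed therefore carried the tagged daf-12 transgene wgIs222 and the unc-119 allele. The labels do not name the promoter of the transgene or the state of the endogenous daf-12 gene. No second condition, stage or untagged strain was analysed here, so the comparisons are between genes within the same samples.

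Regions were deposited as 4 lists: one from each replicate, one from both replicates pooled, and one thresholded for reproducibility between replicates. The deposited name of the pooled list describes it as peaks and background, the input for that thresholding. A region in it is therefore not by itself a DAF-12 binding site. The pooled and replicate 1 lists hold 30000 regions each, the replicate 2 list 23934 and the thresholded list 48. Regions are ranked by the deposited signal, with rank 1 the largest, and a signal is compared only within its own list. The median signal was 5.74 in the pooled list, 4.19 in replicate 1 and 2.96 in replicate 2. The number of regions with a q-value below 0.05 is 1709 in the pooled list, 5020 in replicate 1 and 14271 in replicate 2, so most regions of the first 2 lists do not pass that value. A gene is counted as having a region where a summit, the base of highest signal, lies within 2000 bp of one of its transcript starts. Distances are negative upstream of the start and positive downstream.

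The windows printed here are those of the 4 homeobox genes with a pooled region at a q-value below 0.05, of the 2 best-ranked Hox genes, and of ceh-83, as a further example with a half-site within 60 bp of a summit. Windows that touch an untranslated exon are not shown. Each is the 121 bp around the summit on the plus strand of WBcel235, which has ce11 coordinates, read from the RefSeq genome sequence. Capitals mark the half-site AGTGCA, which reads TGCACT where it lies on the minus strand.
ceh-48, chrIV:6812468-6812588, pooled rank 213: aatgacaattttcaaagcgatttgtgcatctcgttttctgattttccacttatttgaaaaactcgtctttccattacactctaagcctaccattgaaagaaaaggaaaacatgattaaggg
ceh-38, chrII:6950026-6950146, pooled rank 550: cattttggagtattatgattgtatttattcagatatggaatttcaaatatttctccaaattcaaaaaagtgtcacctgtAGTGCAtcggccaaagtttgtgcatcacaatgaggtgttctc
ceh-89, chrX:14143123-14143243, pooled rank 734: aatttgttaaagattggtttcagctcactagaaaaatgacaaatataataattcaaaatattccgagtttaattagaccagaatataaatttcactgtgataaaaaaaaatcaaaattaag
ceh-19, chrIV:7955554-7955674, pooled rank 900: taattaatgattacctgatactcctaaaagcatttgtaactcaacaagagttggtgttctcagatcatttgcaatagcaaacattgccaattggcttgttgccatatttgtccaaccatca
ceh-13, chrIII:7556950-7557070, pooled rank 3889: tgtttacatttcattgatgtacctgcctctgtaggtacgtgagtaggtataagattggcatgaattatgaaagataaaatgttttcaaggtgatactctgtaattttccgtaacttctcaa
nob-1, chrIII:12083270-12083390, pooled rank 6387: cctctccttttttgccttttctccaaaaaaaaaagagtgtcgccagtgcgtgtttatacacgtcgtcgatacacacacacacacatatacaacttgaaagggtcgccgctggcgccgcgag
ceh-83, chrII:1735206-1735326, pooled rank 27496: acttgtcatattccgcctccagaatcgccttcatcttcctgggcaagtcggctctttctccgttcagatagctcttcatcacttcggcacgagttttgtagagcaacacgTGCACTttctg
Of the first 6 windows printed, the one at ceh-38 holds a capitalised hexamer and the other 5 hold none. The window at ceh-83, which also holds one, comes from the low end of the pooled list.

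Homeobox genes had listed regions about as often as other protein-coding genes, and regions that overlapped between the replicates at nearly the same share. In the pooled list 54 of 68 homeobox genes (79.4%) had a region, against 74.4% of the other protein-coding genes. A pooled region with a q-value below 0.05 was present at 4 of 68 homeobox genes (5.88%), against 7.33% of the others. The direction was the other way in each replicate list, with 16 homeobox genes (23.5%) against 20.6% of others in replicate 1 and 35 (51.5%) against 48.1% in replicate 2. It also turned closer to the start, with 5.88% against 2.40% in the pooled list at 500 bp and 5.88% against 4.23% at 1000 bp. In 14 homeobox genes (20.6%) a replicate 1 region and a replicate 2 region overlapped by at least 1 bp, against 20.7% of the others. None of the 68 lay within 2000 bp of a thresholded peak, and 0.146% of the other genes did. In whole worms, binding in few cells and weak binding in many cells cannot be told apart.

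In the full lists, which are of unequal length, the 2 replicates differed in how far homeobox genes stood above the background. In replicate 1, 58 of 68 homeobox genes (85.3%) had a region, against 75% of the other genes. In replicate 2, 48 of 68 homeobox genes (70.6%) had a region, against 66.7% of the others. The difference from the other genes was thus 10.3 percentage points in replicate 1 and 3.88 in replicate 2, and the pooled difference of 4.97 points is close to their spread (SD 4.52 points, n = 2 lists). With 1 group and 2 replicates no test over samples exists, and none was made. Cut to their first 20000 regions, a length chosen after seeing the data, the lists gave homeobox shares of 67.6% (pooled), 61.8% (replicate 1) and 57.4% (replicate 2). The shares of other genes were then 59.97%, 59.85% and 59.84%, so that in replicate 2 the homeobox genes were below the others.

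**Figure D1:**
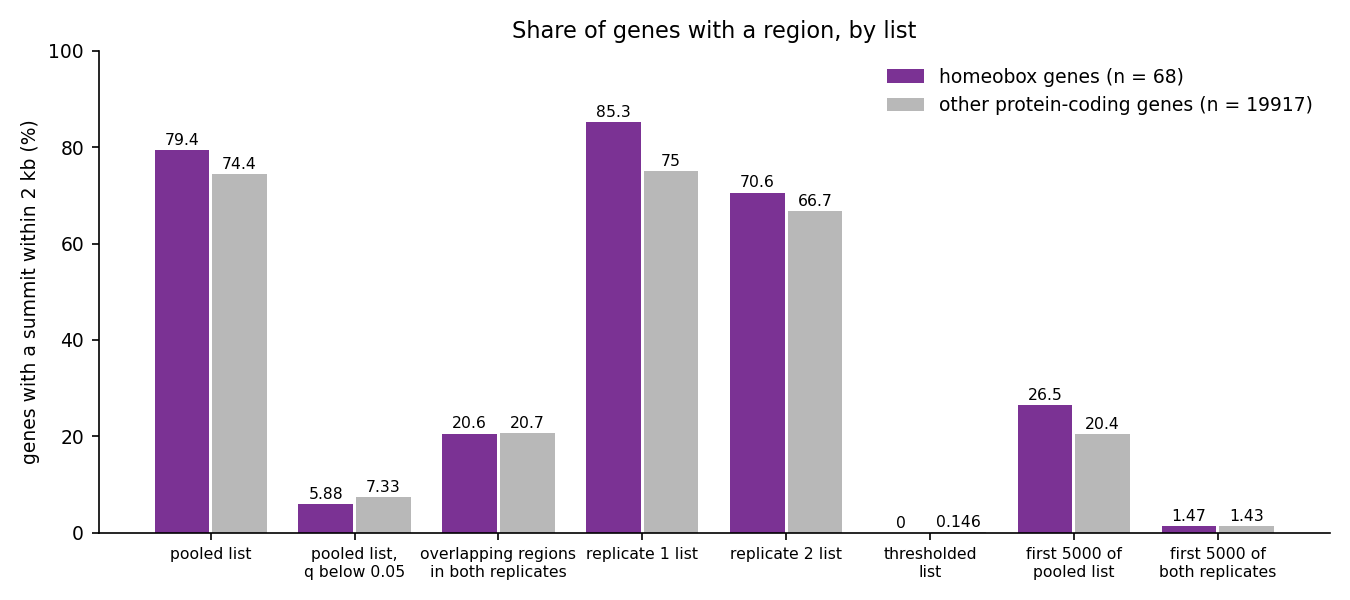
Share of genes (percent, y axis) with a region within 2000 bp of a start, under each way of counting regions, for homeobox genes and other protein-coding genes. The bars stand close together in most settings, as in the share with a region in both replicates, 20.6% against 20.7%, and lie furthest apart in replicate 1, 85.3% against 75%.

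By median best rank the replicates were also unequal, but here it was replicate 2 in which homeobox genes stood above the others. Among the first 5000 pooled regions, 18 homeobox genes (26.5%) had one, against 20.4% of other genes. The best pooled region had a median rank of 7114.5 in the 54 homeobox genes with one, against 10248 in the others. In replicate 1 the order was turned round, with a median best rank of 10894 in homeobox genes and 10298 in the others. In replicate 2 the medians were 6431 in homeobox genes and 8735 in the others. The first 2000 regions of replicate 2 held a region for 13 homeobox genes (19.1%), against 8.92% of others, while the first 2000 of replicate 1 did so for 7 (10.3%), against 8.93%. In the pooled list the first 2000 regions reached 5 homeobox genes (7.35%), against 8.71% of others.

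**Figure D2:**
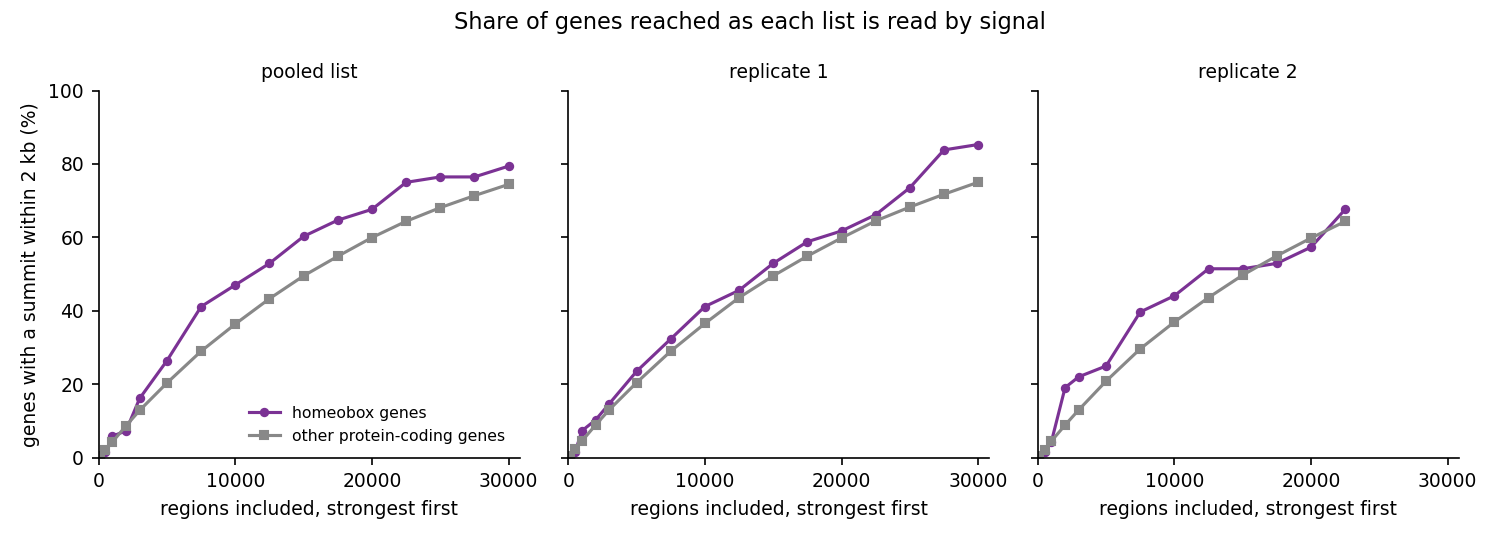
Share of genes (percent, y axis) with a region among the first regions of each list (x axis, number of regions taken in order of signal), for homeobox genes and other protein-coding genes, in 3 panels for the pooled list, replicate 1 and replicate 2. At 15000 pooled regions the homeobox genes stand at 60.3% and the others at 49.5%, while in replicate 2 the same cut gives 51.5% and 49.7%.

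The number of regions per gene was also near the background. Of the 68 homeobox genes, 14 had no pooled region, 25 had 1, 17 had 2, 9 had 3 and 3 had 4, and none had 5 or more, against 2.13% of other genes. The mean was 1.44 regions per homeobox gene and 1.40 per other gene, in start windows of 4.50 and 4.49 kb on average. The median was 0.250 regions per kb of window in both. Homeobox genes with 1 transcript start had a pooled region in 76% of cases, against 71.4% of others with 1 start. Those with 2 or more starts did in 88.9%, against 82.5% of others.

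The 4 homeobox genes with a pooled region at a q-value below 0.05 were ceh-48, ceh-38, ceh-89 and ceh-19. ceh-48 and ceh-38 are ONECUT genes, which encode proteins with a cut domain beside the homeodomain, and ONECUT proteins act in neurons throughout the C. elegans nervous system. ceh-19 is a homeobox gene of a pharyngeal motor neuron class. In 3 of the 4, the best pooled summit lay inside the gene itself.

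ceh-48 (WBGene00015934, chrIV:6812108-6815607) had the best-ranked pooled region of the 68 genes, at rank 213, with a signal of 13.8 and a q-value of 0.0118. Its summit lay 420 bp downstream of the start, in an intron of ceh-48, although the start of a piRNA gene, 21ur-11132, was nearer at 386 bp. An overlapping region stood at rank 676 in replicate 1, with a signal of 9.08, and at rank 4421 in replicate 2, with a signal of 4.17. The replicate summits were 90 bp apart. ceh-48 was thus the only one of the 68 (1.47%) with overlapping regions among the first 5000 of both replicate lists, against 1.43% of other genes. A second region upstream, 1126 bp from the start in the pooled list at rank 4832, had its higher replicate rank in replicate 2, 2176 there and 21902 in replicate 1.

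ceh-38 (WBGene00000459, chrII:6951526-6955409) has 11 distinct transcript starts. Its best pooled region, at rank 550 with a signal of 12.1 and a q-value of 0.0209, lay 1440 bp upstream, in an intron of the neighbouring gene malt-1, whose own start was nearer at 1214 bp. This is the window that holds AGTGCA, on the plus strand at 6950105 to 6950110. Replicate 1 had an overlapping region at rank 879 with a signal of 8.73, and replicate 2 had none. The overlap was partial. That replicate 1 region spanned -1408 to -1105 bp from the most upstream start, and the rank 550 region -1592 to -1289 bp. The replicate 1 region lay closer to a low-ranked pooled region, at rank 27739 with a signal of 4.32, which spanned -1387 to -1084 bp. A second pooled region, at rank 1200 with a signal of 10.7 and a q-value of 0.0346, lay 88 bp downstream of a ceh-38 start. There it was replicate 2 that had the overlapping region, at rank 752 with a signal of 6.11, and replicate 1 had none. The pooled regions of ceh-38 at ranks 550 and 1200 were thus overlapped in different replicates.

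ceh-89, on chromosome X, had pooled regions at rank 734, with a signal of 11.5 and a q-value of 0.0211, and at rank 1508, with a signal of 10.2 and a q-value of 0.0441. The first lay in a ceh-89 intron 1237 bp downstream of the start, and the second 23 bp upstream of it. Replicate 1 had overlapping regions at rank 828 with a signal of 8.79 and at rank 8308 with a signal of 5.22. Replicate 2 had no region within 2000 bp of the start.

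ceh-19, on chromosome IV, had its best pooled region at rank 900, with a signal of 11.2 and a q-value of 0.0228, in a coding exon 335 bp from the nearest start. In replicate 1 the overlapping region stood at rank 175, with a signal of 11.3 and a q-value of 0.00141. In replicate 2 it stood at rank 22571, with a signal of 2.09 and a q-value of 0.221. A second pooled region of ceh-19, at rank 4200 and 1108 bp downstream of a start, was matched in replicate 2 at rank 682 with a signal of 6.21 and by no region in replicate 1. The high-ranking regions of ceh-19 were thus at different places in the 2 replicates.

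**Figure D3:**
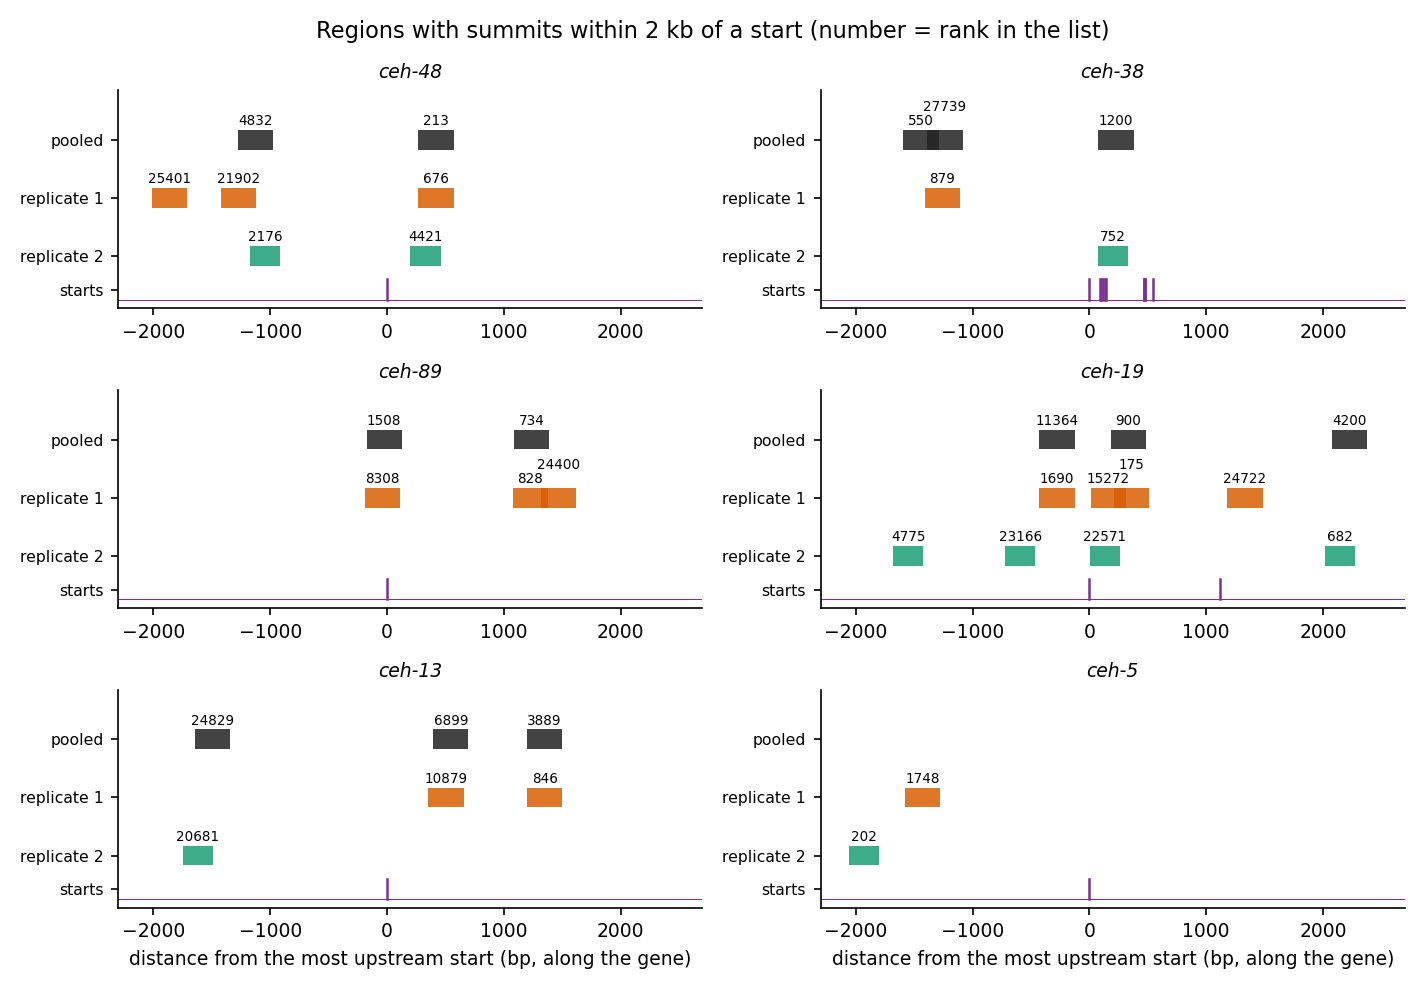
Regions around the starts of ceh-48, ceh-38, ceh-89, ceh-19, ceh-13 and ceh-5 (x axis, distance in bp from the most upstream start, with further starts as ticks), in rows for the pooled list, replicate 1 and replicate 2, each labelled with its rank. The intronic region of ceh-48 is present in all 3 rows, with ranks 213, 676 and 4421. The best pooled region of ceh-38 is overlapped in part by a replicate 1 region and by none in replicate 2.

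The next best-ranked homeobox genes had pooled q-values of 0.0620 and above. ceh-14, a LIM homeobox gene needed by several sensory and interneuron types, had its region at rank 1960, with a signal of 9.70, 1149 bp upstream, at rank 9734 in replicate 1 and with none in replicate 2. ceh-99 had rank 2119 and a signal of 9.54, in an untranslated exon of srh-70, a chemoreceptor-family gene, whose start was nearer. It had no overlapping region in replicate 1 and one at rank 1367 in replicate 2, with a signal of 5.50. The neighbours ceh-57 and ceh-58 shared 1 region, at rank 2347 with a signal of 9.34, in a ceh-58 intron, with rank 23713 in replicate 1 and rank 1009 in replicate 2. ceh-24, an NK-2 type gene, had a summit 28 bp upstream of its start at rank 2490, with rank 17671 in replicate 1 and 1292 in replicate 2. ceh-43, the Distal-less homolog, had a summit 260 bp upstream at rank 2647, with none in replicate 1 and rank 1533 in replicate 2. Except at ceh-14, these regions ranked higher in replicate 2 than in replicate 1 or had no overlapping region in replicate 1.

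Of the 6 Hox genes, 4 (66.7%) had a pooled region, against 74.4% of other protein-coding genes. None had one at a q-value below 0.05, against 7.33%, and none had regions that overlapped between the replicates, against 20.7%. With 6 genes, these counts do not set the Hox genes apart from that background. ceh-13, the labial homolog that acts in anterior patterning, had the best one. It stood at rank 3889, with a signal of 8.45 and a q-value of 0.150, in a ceh-13 intron 1350 bp downstream of the start. Replicate 1 had it at rank 846 with a signal of 8.77. The single replicate 2 region of ceh-13 lay elsewhere, 1618 bp upstream of the start, at rank 20681 with a signal of 2.21.

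nob-1 and php-3 are neighbouring posterior Hox genes of the Abdominal-B type. nob-1 had a pooled region at rank 6387, with a signal of 7.502, in its own intron 932 bp from a start, at rank 6866 in replicate 1 with a signal of 5.53 and with none in replicate 2. php-3 had no region in the pooled list or in either replicate list, and its nearest pooled summit lay 4154 bp away. egl-5, which acts in the tail, had a pooled region at rank 12851 with a signal of 6.06, 226 bp downstream of a start. Neither replicate had a region there. Its replicate 1 region at rank 6859 and its replicate 2 region at rank 23843 lay elsewhere in the window.

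lin-39, the Hox gene of the mid-body and of vulval precursor cells, had a pooled region at rank 24062 with a signal of 4.66, 1940 bp upstream. It was at rank 9822 in replicate 2, with a signal of 3.22, and replicate 1 had its best lin-39 region elsewhere, 338 bp upstream of a start at rank 14452. mab-5, which acts in the posterior body, had no pooled or replicate 1 region and a replicate 2 region at rank 23625 with a signal of 2.02, close to the end of that list. ceh-20, a Pbx-type cofactor of Hox proteins, had a pooled region 332 bp upstream of its start at rank 6521, with a signal of 7.46. Replicate 1 had an overlapping region at rank 1626, with a signal of 7.78, and replicate 2 had none.

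The limit of 2000 bp fell between genes with low-ranked regions. Just inside it were ceh-91, with a pooled summit at 1974 bp and rank 21449, and lin-39 at 1940 bp. Just outside were mab-5, at 2145 bp with rank 24533, and ceh-84, at 2217 bp with rank 29707.

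Each of the 3 long lists held some region, not necessarily at the same place, for 36 of 68 homeobox genes (52.9%), against 47.2% of other genes. At least 1 of these lists held a region for 65 (95.6%), against 91.6% of others, and php-3, ceh-40 and ceh-84 had none. ceh-40 is a second Pbx-type gene, beside ceh-20. Of the 14 without a pooled region, 11 had a region in a replicate list. Among the 19917 other genes, 14827 had a pooled region, 5090 had none and 18240 had a region in at least 1 of the 3 lists. Among those 11 homeobox genes was ceh-5, on chromosome I, named here after its values were seen. It had a replicate 1 region at rank 1748 with a signal of 7.68, 1428 bp upstream of the start, and a replicate 2 region at rank 202 with a signal of 7.48, 1927 bp upstream. The first summit lay in an untranslated exon of eat-16 and the second in an intron of ocrl-1, although the ceh-5 start was the nearest to both. These 2 regions did not overlap, and no pooled region was called within 2000 bp of the start.

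**Figure D4:**
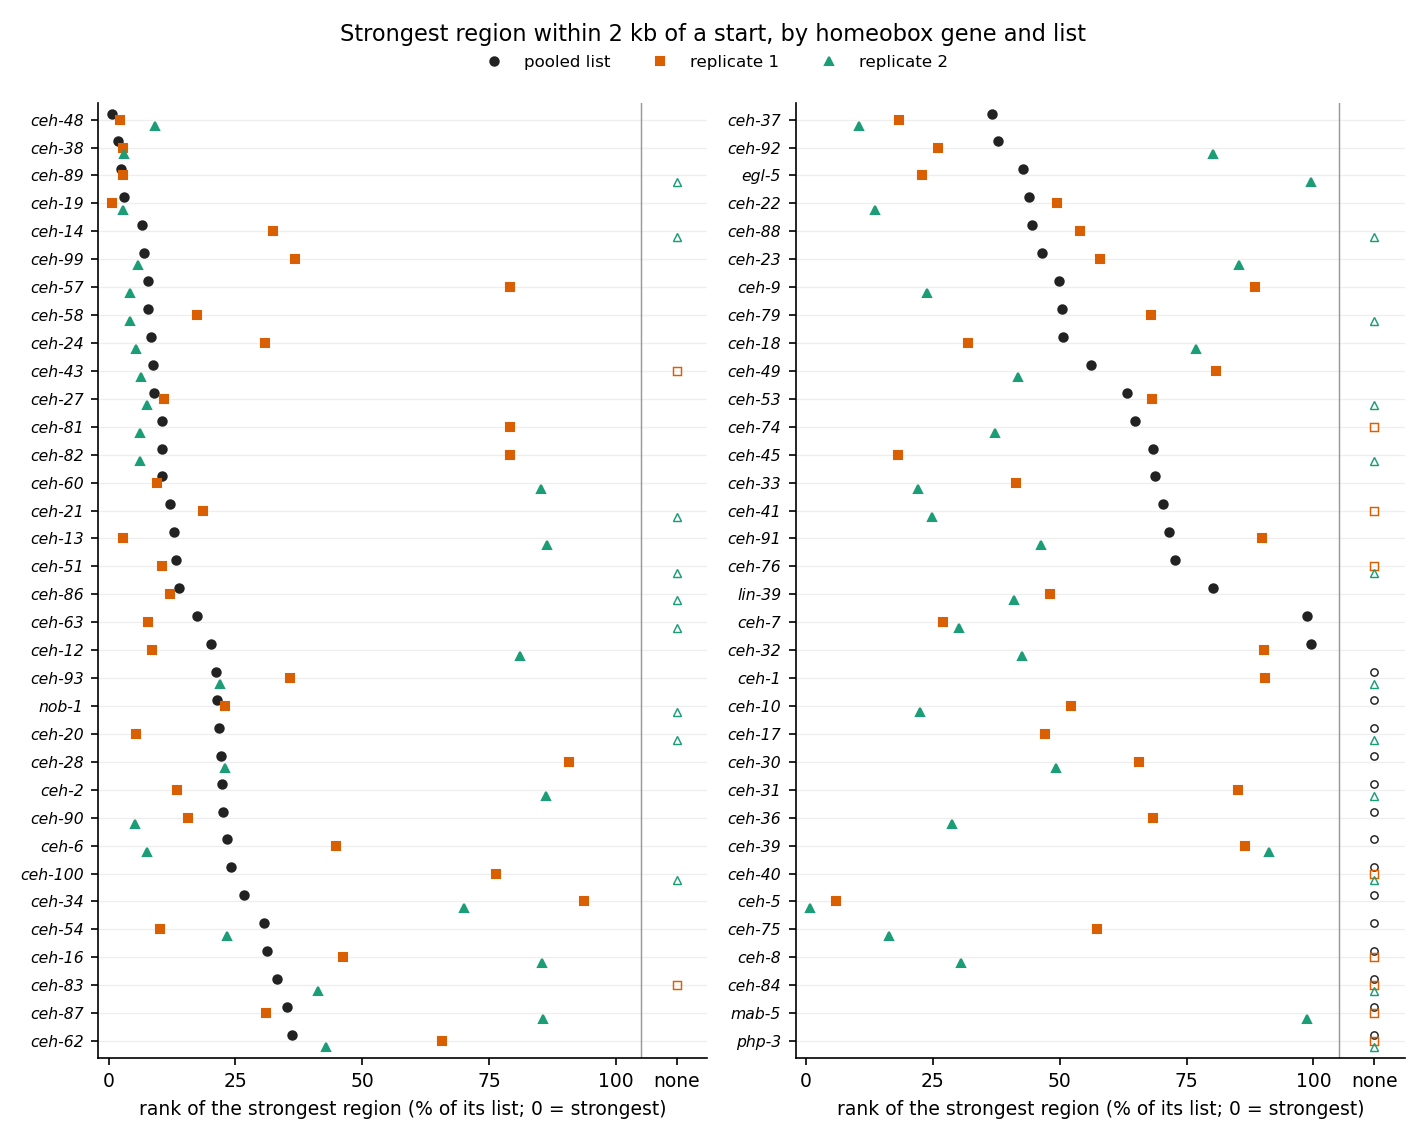
Best region of each of the 68 homeobox genes (rows) in the pooled list, replicate 1 and replicate 2, as its rank in percent of the list (x axis, 0 the strongest), with open symbols under none for genes without a region. ceh-48 stands at 0.71% of the pooled list, 2.25% of replicate 1 and 9.09% of replicate 2, while many genes further down have symbols far apart, or no region in a list.

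The 14 homeobox genes whose regions overlapped between the replicates were ceh-2, ceh-6, ceh-7, ceh-19, ceh-24, ceh-27, ceh-28, ceh-48, ceh-57, ceh-58, ceh-81, ceh-82, ceh-91 and ceh-92. ceh-57 with ceh-58 and ceh-81 with ceh-82 each share 1 pooled region between 2 neighbouring genes, so these 4 genes are not separate observations. Except at ceh-48, at least 1 region of each overlapping pair lay outside the first 5000 of its replicate list. ceh-27, an NK-2 type gene, had an overlapping pair at rank 3299 in replicate 1 and rank 20015 in replicate 2. ceh-6, a POU gene of the excretory cell, had one at rank 23367 in replicate 1 and rank 1806 in replicate 2.

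Overlap with the replicates was counted over regions as well. The 98 pairs of a homeobox gene and a pooled region rest on 96 distinct regions. Of these, 12 (12.5%) overlapped a region in both replicates, against 17.9% of the regions at other genes. A further 47 (48.96%) overlapped replicate 1 alone, against 43.97% at other genes, and 21 (21.9%) overlapped replicate 2 alone, against 21.8%. The remaining 16 (16.7%) overlapped neither, against 16.4%.

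Families of homeobox genes were taken from lists that include genes of other names. Of the other protein-coding genes, 74.4% had a pooled region and 7.33% had one at a q-value below 0.05. Regions overlapped between replicates at 20.7% of them. In the NK and related list 13 of 16 genes had a pooled region, none with a pooled q-value below 0.05. Some genes of this list act in pharyngeal and other muscle and in neurons. Regions overlapped between replicates at 7 of the 16 (43.8%), against 20.7% of other protein-coding genes. These 7 were ceh-2, ceh-24, ceh-27, ceh-28, vab-15, mls-2 and tab-1. Of 6 annotated ONECUT and CUX genes 5 had a pooled region, 2 at a q-value below 0.05 and 1 in both replicates. All 4 genes of the sine oculis type and all 3 POU genes had a pooled region, with overlap between replicates at none of the sine oculis genes and at the POU gene ceh-6. The LIM homeobox list had 5 of 7 with a pooled region and 2 in both replicates, lim-4 and ttx-3. Of 14 paired-like genes 10 had a pooled region and 2, ttx-1 and unc-42, had one in both replicates. In the PBC and TALE list, which holds the Hox cofactors, 4 of 6 had a pooled region and none in both replicates.

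Outside the naming rule, 30 homeobox genes under other names were counted beside the 68. Of these 25 (83.3%) had a pooled region and 9 (30%) had regions that overlapped between replicates, against 74.4% and 20.7% of other protein-coding genes. A pooled region at a q-value below 0.05 was present at 1, against 7.33% of others. The one was unc-4, which sets motor neuron identity, with rank 1380 and a signal of 10.4. It was followed by zfh-2 at rank 2492, lim-4 at rank 2591, vab-15 at rank 2765 and unc-30, a regulator of GABA neurons, at rank 3750. Among 8 Polycomb-like regulators of Hox genes, all 8 had a pooled region, none at a q-value below 0.05 and 2 with overlap between replicates, and the best ranks were 3156 at sor-1, 6888 at mes-6, 8548 at sop-2, 9829 at sor-3 and 16121 at mig-32. The lists are short and were not tested, so these counts only describe them, beside the 74.4% of other genes with a pooled region.

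Pooled counts of homeobox genes differed between chromosome X and the autosomes. Chromosome X holds 18 of the 68 homeobox genes (26.5%), against 13.6% of other protein-coding genes. On X, 12 of 18 homeobox genes (66.7%) had a pooled region, against 79.7% of other genes on X. On the autosomes 42 of 50 (84%) did, against 73.6% of the others. The direction on X was not the same in the replicates, with 16 of 18 homeobox genes (88.9%) against 78.7% of others in replicate 1, and 11 of 18 (61.1%) against 72.9% in replicate 2. Of the 14 homeobox genes without a pooled region, 6 were on X. This count restates the 12 of 18 above and is not a further result. The difference between X and the autosomes was not tested.

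The position of the summits was close to that at other genes. Of the 98 pairs of homeobox gene and pooled region, 55 (56.1%) had the summit upstream of the nearest start of the gene, against 52.9% at other genes. In replicate 1 the shares were 57.6% and 52.7%, and in replicate 2 they were 56.6% and 51.7%. The median distance from the start was 915.5 bp at homeobox genes and 918 bp at others. Summits 1500 to 2000 bp downstream made up 6.12% of pairs at homeobox genes and 11.2% at others. Introns held 42.7% of the 96 regions, against 34.8% at other genes, and intergenic sequence held 38.5%, against 37.03%. Coding exons held 15.6%, against 20.4%, and untranslated exons 3.12%, against 7.72%. The intron share was not higher in every list: in replicate 1 it was 31.96% at homeobox genes and 35.4% at others, and in replicate 2 38.4% and 32.8%.

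**Figure D5:**
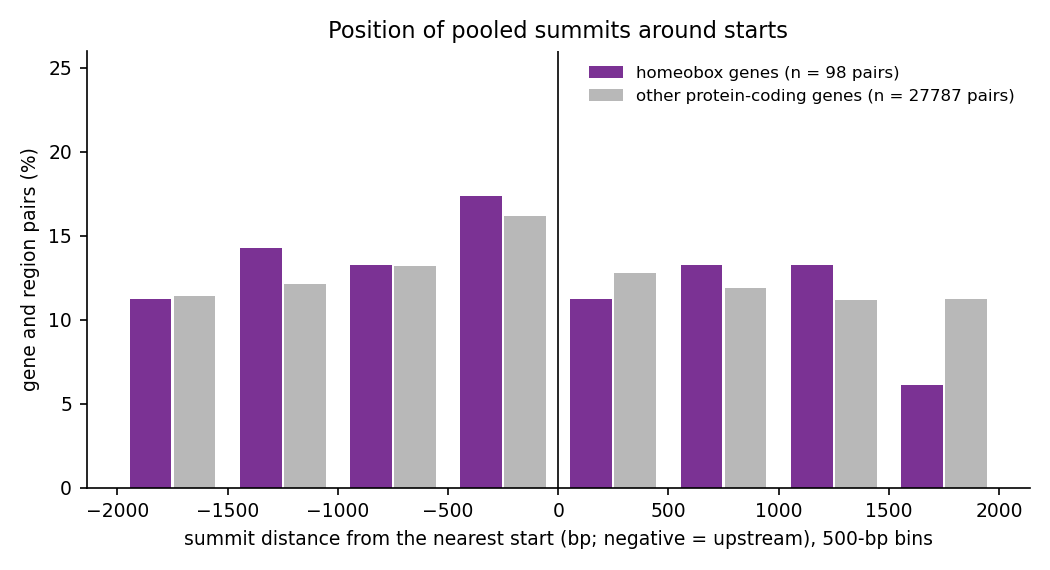
Share of gene and region pairs (percent, y axis) by distance of the pooled summit from the nearest start of the gene (x axis, bp, in bins of 500 bp, negative upstream), for homeobox genes and other protein-coding genes. The 500 bp upstream of the start hold 17.3% of pairs at homeobox genes and 16.2% at others, and the last downstream bin holds 6.12% and 11.2%.

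A region within 2000 bp can belong to a neighbour. For the best pooled region of each homeobox gene, the nearest start of any gene was its own in 33 of 54 (61.1%), against 58.7% of other genes. Another protein-coding start was nearer in 12 (22.2%), against 29.0%, and a noncoding start in 9 (16.7%), against 12.2%. Homeobox genes lay in sparser sequence, with a median gap upstream to the next protein-coding gene of 2066.5 bp, against 935 bp. The gap was over 2000 bp at 50% of homeobox genes and 31.4% of others.

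The share of summits with a half-site was near that at other genes, with opposite differences in the 2 replicates. The 100 bp to each side of every pooled summit were read for AGTGCA and AGGACA, in both orientations. AGTGCA was found in 8 of 96 regions (8.33%), against 6.97% of regions at other genes, and AGGACA in 0 of 96, against 4.50%. These included regions of nob-1, egl-5, ceh-21, ceh-24, ceh-38, ceh-83 and ceh-99. At egl-5 it was a further pooled region, at rank 26779 with a signal of 4.41, 437 bp downstream of a start. The egl-5 region at rank 12851 had no half-site. Either hexamer was present in 8.33%, against 11.2% at other genes. In replicate 1 this share was 5.15% at homeobox genes, against 11.4%, and in replicate 2 it was 16.4%, against 11.5%, with AGGACA in 5 of 73 regions there. Within 150 bp the direction turned: either hexamer was present in 16.7% of regions at homeobox genes, against 16.5%, and AGGACA in 5 of 96 (5.21%), against 6.89%. A match is a description of the letters in the window and not a measured binding site.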

How the data were processed

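The authors deposited regions in narrowPeak form, 1 list per replicate, 1 pooled and 1 thresholded for reproducibility (IDR). The deposited signal of a region has no stated scale, so it only ranks and describes regions within its list. The deposited −log10 q-values gave the 0.05 cut. Per the labels' text lists, the replicate lists and the pooled one were made from ChIP alignments with a control, which was not analysed here. The sources used here do not give the aligner, the caller, their versions or the IDR threshold, and depth is unknown. Only ce11 lists were used. Summits are column 2 plus column 10 plus 1, and starts come from Ensembl release 115 (WBcel235). 0 regions ran past a chromosome end. Scripts used Python 3.11.15, numpy 2.4.6, pandas 2.3.3, scipy 1.17.1 and matplotlib 3.10.9, and counting was tested on planted regions. ceh-44 matched no gene name. 1 half-site window is not reported here.

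The members, lists and counting rules were chosen with earlier results of these data known. Named genes were the 6 Hox genes, ceh-20, every member with a thresholded peak or a pooled q-value below 0.05, the 10 of smallest pooled rank, members among the first 5000 of both replicates, the 2 nearest on each side of 2000 bp and up to 5 of each other list. Alternatives changed the distance, starts, members, comparison genes, list, threshold and overlap. No test was made, since the design has 1 group.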

Additional observations from a re-analysis of the deposited data

How the results depend on the processing

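Differences are homeobox genes minus other protein-coding genes, and a difference was taken as moved where it shifted by more than the spread between replicate lists. For the share in both replicates, which has no such spread, it was taken as moved where the homeobox share left the exact 95% binomial interval of its original value. Of 55 alternative values, 33 stayed within these limits and 22 moved, and in 18 the difference changed sign. The spread, an SD of 2 lists, was 4.52 points for the pooled share and 0.298 for the share at a q-value below 0.05. It was 0.0455 points for the upstream share, 7.95 for the half-site share, 2050.6 ranks for the median rank and 0 for regions per kb. Limits so unequal, taken from the lists also used with 1 replicate left out, make these counts no measure of robustness. The share with a pooled region differed by 10.7 points in the upper 50% of the list and by -2.49 in the first 20000 regions of replicate 2, a length chosen after seeing the data, and by 3.88 to 10.3 with 1 replicate left out. The share at a q-value below 0.05 differed by 3.48, 1.65 and -3.87 points at 500, 1000 and 5000 bp, by -0.77 with the most upstream start only, by -0.98 for ceh- genes only, by -0.19 at a q-value below 0.01, by 1.58 in the first 1000 regions and by 2.97 to 3.40 with 1 replicate left out. The share in both replicates changed sign in 8 of 9 settings and ranged from -0.97 to 2.64 points, the highest at 1000 bp. Of these, the ones counted as moved differed by 2.32 points at 500 bp, 1.24 at 5000 bp, 0.51 with summits within 100 bp and 0.0396 in the first 5000 of both lists. The limit here is on the homeobox share and not on the difference. A difference of 0.0396 thus counts as moved and that of 2.64 at 1000 bp does not. The median best rank differed by -5283.5 at 1000 bp and 58 at 5000 bp, and by -2304 to 596 with 1 replicate left out. The share with a half-site ranged from -6.27 to 4.97 points, with the sign changed in 2 of 4 settings. Regions per kb differed by 0.0896 at 1000 bp. The upstream share differed by 4.85 to 4.92 points with 1 replicate left out. No paired analysis was possible because the design has 1 group and no result comes from a test. Depth is unknown, so no counting interval is given, and replicate lists of unequal length and order limit every share.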
